A study of Mus musculus with 6 samples.

Results

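Nos2, Ptgs2, Ptges, Ido1, Kynu, Acod1, Gch1 and Sod2 encode enzymes that cells under inflammatory stimulation switch on to make nitric oxide, prostaglandin E2, kynurenine and itaconate, or to dispose of superoxide. These 8 genes were taken by symbol from the 78298 genes of the deposited table, and all 8 were found in it. RNA was sequenced from RENCA cells, a mouse renal adenocarcinoma line, that carried either a lentivirus with the mouse Aqp1 coding sequence (oe-AQP1, 3 samples) or the empty vector (oe-NC, 3 samples). In the oe-AQP1 vector the insert is driven by the ubiquitin C promoter. Both groups went through the same puromycin selection (2 µg/mL for 14 days), so all 6 samples carry a vector and its resistance gene and no sample is of untransduced cells. The samples are cultured, selected populations and are all labelled as batch 1. They are described as biological replicates, but nothing says that they came from separate transductions, so p-values measure the spread between these samples.

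Aqp1 separated the groups, with 7713, 8545 and 7838 counts in oe-AQP1 and 41, 25 and 45 in oe-NC. Total counts lay between 18385714 and 21920899 a sample, and 3 counts, the upper limit that a count of 0 allows, came to between 0.137 and 0.163 CPM (counts scaled to a library of 1000000). The epithelial keratins Krt8 and Krt18 were abundant in both groups (Krt8 at 296 to 302 CPM in oe-AQP1 against 379 to 422 CPM for oe-NC), while Krt19 had 10 to 26 counts a sample and Epcam none. oe-NC sample 1 stood apart from the other oe-NC samples, with a chi-square per gene of 8.76 and 10.1 against them, where other pairs of the same group had 1.71 to 1.99. Differences were tested with limma-voom over 15522 genes and are log2 fold changes (log2FC) of oe-AQP1 against oe-NC, with Benjamini-Hochberg false discovery rates (FDR).

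Inducible nitric oxide synthase makes nitric oxide from arginine and needs tetrahydrobiopterin, whose synthesis starts with GTP cyclohydrolase 1. Cyclooxygenase-2 and microsomal prostaglandin E synthase act in sequence on arachidonic acid, Ido1 and kynureninase act along the route from tryptophan, Acod1 diverts cis-aconitate from the tricarboxylic acid cycle to itaconate, and Sod2 converts superoxide in the mitochondrion. In macrophages and other cells the genes are known targets of NF-kappaB and of interferon-activated factors such as IRF1, and they are often read together as a sign of inflammatory activation.

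The promoters are shown so that matches to the motifs of these inducers can be set beside the values of 3 genes that differed between groups and of Ptgs2, which had no count. RefSeq promoter windows (mouse build GRCm38.p6) were found for 5 of the 8 genes (Ptgs2, Ptges, Acod1, Gch1 and Sod2) and not for Nos2, Ido1 or Kynu. The windows below hold the 250 bases before the annotated start, 5′ to 3′ on the gene's strand, and capitals mark each motif match. They lie at chr14:103046762-103047011 on the plus strand for Acod1, chr14:47189414-47189663 on the minus strand for Gch1, chr17:13007589-13007838 on the plus strand for Sod2, and chr1:150099781-150100030 on the plus strand for Ptgs2.
Acod1: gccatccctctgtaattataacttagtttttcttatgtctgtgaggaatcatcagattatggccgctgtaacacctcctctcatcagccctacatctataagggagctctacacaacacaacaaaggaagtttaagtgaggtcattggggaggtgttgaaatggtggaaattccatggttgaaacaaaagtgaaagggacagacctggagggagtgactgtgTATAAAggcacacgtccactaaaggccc
Gch1: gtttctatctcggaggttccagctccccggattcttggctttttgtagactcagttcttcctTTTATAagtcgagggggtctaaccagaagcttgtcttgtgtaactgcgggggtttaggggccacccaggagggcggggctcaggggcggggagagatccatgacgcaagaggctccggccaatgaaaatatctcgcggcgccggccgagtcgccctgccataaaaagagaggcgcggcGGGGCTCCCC
Sod2: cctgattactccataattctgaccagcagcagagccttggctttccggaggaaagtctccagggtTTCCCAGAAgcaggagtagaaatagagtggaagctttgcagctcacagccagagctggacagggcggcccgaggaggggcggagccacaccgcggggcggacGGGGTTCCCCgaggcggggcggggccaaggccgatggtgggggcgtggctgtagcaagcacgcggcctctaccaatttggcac
Ptgs2: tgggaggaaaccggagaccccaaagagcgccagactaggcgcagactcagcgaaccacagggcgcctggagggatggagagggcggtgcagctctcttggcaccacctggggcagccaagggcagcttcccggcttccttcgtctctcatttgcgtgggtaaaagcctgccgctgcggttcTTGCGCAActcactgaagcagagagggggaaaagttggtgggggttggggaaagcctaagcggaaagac
Acod1 held a TATA box that began 28 bases before the start, and no other searched motif. Gch1 held an NF-kappaB motif 10 bases before the start and a TATA box on the opposite strand at 188. Sod2 held an NF-kappaB motif at 83 and a STAT-binding GAS at 185, and Ptgs2 held a C/EBP motif at 69. The Ptges window held none of the 6 motifs. Both strands were searched for the NF-kappaB motif, the interferon-stimulated element ISRE (GAAA and GAAA around any 2 bases), the GAS (TTCNNNGAA), the AP-1 motif (TGANTCA), the TATA box (TATAAA) and the C/EBP motif (TTGCGCAA), and no matches overlapped. Among 32851 windows of the same length the shares with a match were 3.90%, 2.98%, 7.02%, 6.75%, 12.4% and 0.164%, in that order. The Acod1 window was poorer in CpG, with 2 against 17 in Gch1, 15 in Sod2 and a median of 6 over all windows. A match in these letters is a description and says nothing of binding in RENCA cells.

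Of the 8 genes, 5 passed the filter on low counts, and 4 of these passed an FDR of 0.05, with Acod1 and Gch1 higher and Nos2 and Sod2 lower in oe-AQP1. Over all 15522 genes tested, 32.5% passed, 16.0% higher and 16.6% lower. Acod1 and Nos2 also exceeded a log2FC of 1 in size, which 5.23% of all genes did with that FDR, 4.39% upward and 0.844% downward. Over all genes tested, 47.3% had groups that did not overlap, as these 4 did. Acod1 passed the filter only through the oe-AQP1 samples, where it was counted. edgeR and DESeq2 each called 2 higher and 2 lower as well. The exact two-sided permutation test gave p = 0.1 for each of the 4, the smallest that 3 against 3 samples allow. In bulk RNA, fewer cells expressing a gene and less of its RNA per cell cannot be told apart.

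**Figure D1:**
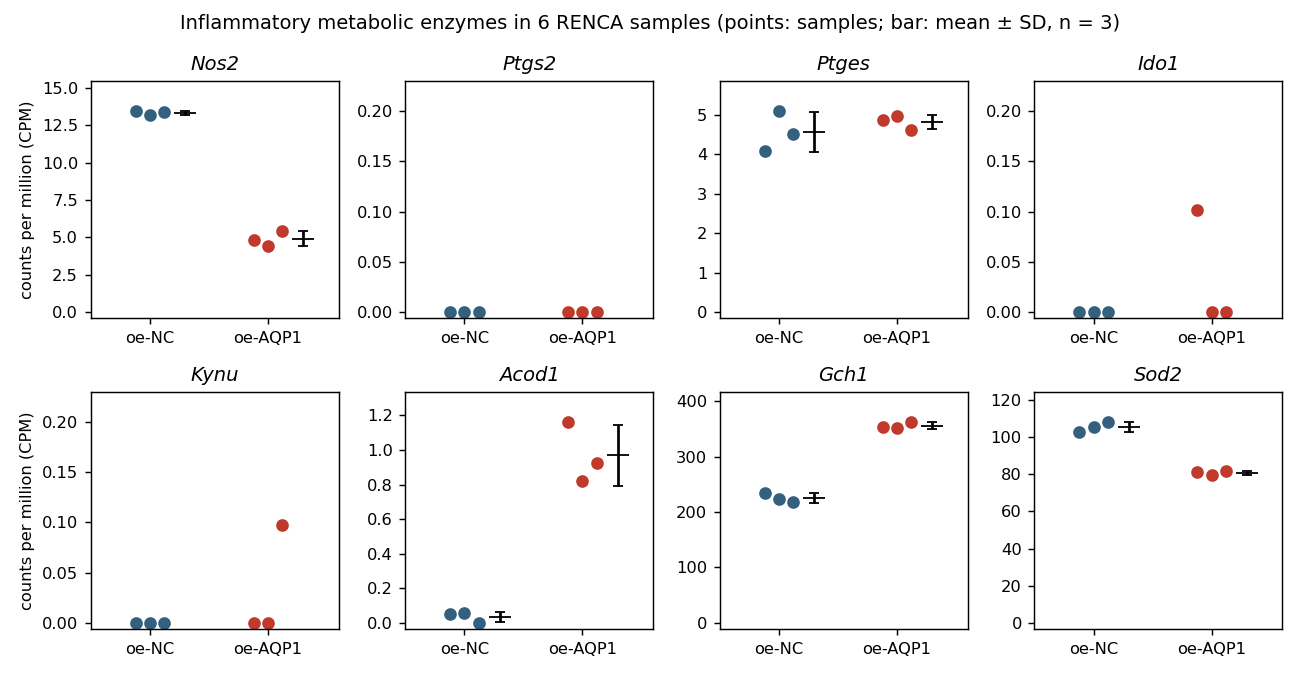
CPM of the 8 enzymes in each sample (points, vertical axes linear and each from 0), with mean ± SD (n = 3) beside the points for the 5 genes tested. Nos2 and Sod2 were lower and Gch1 and Acod1 higher in oe-AQP1 without overlap between groups, Ptges overlapped, and Ptgs2 had no count.

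Nos2 (ENSMUSG00000020826, chr11:78811613-78851080 on the plus strand of GRCm39), the inducible nitric oxide synthase, had 4.86, 4.46 and 5.45 CPM in the oe-AQP1 samples and 13.4, 13.2 and 13.4 in the oe-NC samples. All oe-AQP1 samples lay well under all oe-NC samples. The levels rested on 96, 98 and 112 counts against 264, 241 and 285. Nos2 was 2.72-fold lower in oe-AQP1, a log2FC of -1.44 (SE 0.10, 95% interval -1.67 to -1.22, FDR 2.62e-06 by limma-voom). Without oe-NC sample 1 the log2FC was -1.44 as well.

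Gch1 (ENSMUSG00000037580, chr14:47391346-47426915, minus strand), which makes the first intermediate of the Nos2 cofactor tetrahydrobiopterin, went the other way. Its CPM was 354, 352 and 363 in oe-AQP1 and 234, 223 and 218 in oe-NC, with no overlap between groups. It was 1.58-fold higher (log2FC 0.66, SE 0.04, 95% interval 0.58 to 0.75, FDR 5.50e-07 by limma-voom), which does not reach the fold criterion. There were 72.9, 79.0 and 66.6 counts of Gch1 per count of Nos2 in oe-AQP1 and 17.4, 16.9 and 16.3 in oe-NC.

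Nos2 remained the main nitric oxide synthase transcript per length of exon in both groups. Its share of the summed level of Nos1, Nos2 and Nos3 was 60.4%, 62.4% and 63.3% in oe-AQP1 and 79.2%, 80.3% and 75.6% in oe-NC. Neither relative passed the test: Nos3, the endothelial form, had a log2FC of -0.27 (FDR 0.231) and Nos1, the neuronal form, -0.74 (FDR 0.142) at 7 to 24 counts a sample. Of 21 genes around Nos2 and Gch1 (the other synthases and proteins that bind them, arginine and methylarginine enzymes, tetrahydrobiopterin enzymes and guanylate cyclase), 15 were tested, with a median log2FC of -0.27 against 0.00 for all genes. Of these, 5 (Ddah1, Asl, Qdpr, Pcbd1 and Arg2) were lower by limma-voom, as were 16.6% of all genes tested, and DESeq2 called 4 lower. The number of higher genes was 0 by limma-voom, edgeR and DESeq2 and at an unadjusted p under 0.05. Ddah1, which breaks down inhibitors of nitric oxide synthesis, had a log2FC of -0.43 (FDR 0.0113) and Qdpr, which recycles the cofactor, -0.33 (FDR 0.0028). Without oe-AQP1 sample 2 the count of lower genes was 3, Ddah1 and Arg2 no longer passing. Arg2 did not pass in 7 of 15 alternative settings, DESeq2 and most left-out samples among them. Gchfr, the feedback regulator that binds Gch1, had a log2FC of -0.65 (FDR 0.0603), and the highest value of the list was Pcbd2 at 0.12 (FDR 0.557). Ass1, which rebuilds arginine from citrulline, had no count.

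Acod1 (ENSMUSG00000022126, chr14:103284413-103294009, plus strand), which makes itaconate, was counted 23, 18 and 19 times in the oe-AQP1 samples and 1, 1 and 0 times in the oe-NC samples. The oe-NC counts all lay under the 3 counts that a 0 allows, while each oe-AQP1 sample was above them. The mean was 0.969 ± 0.177 CPM (SD, n = 3) in oe-AQP1, a low level beside Gch1 or Sod2. Per read, the 60 counts of one group against the 2 of the other gave a ratio of 28.8, with an exact 95% interval of 7.62 to 243 that covers counting error only. The fitted log2FC of 4.21 (SE 0.49, FDR 1.18e-04 by limma-voom) depends on the small value that voom adds to each count. It was 4.48 without oe-NC sample 1 and 3.62 without oe-NC sample 3, the sample with 0 counts.

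Acod1 is best known from macrophages, so markers of these cells were read in the same samples. Of 12 macrophage markers, 6 (Ptprc, Adgre1, Itgam, Fcgr1, Tyrobp and Fcer1g) had at most 3 counts in every sample, and Adgre1 and Tyrobp had 0 in all. The summed level of the 12 was 63.6 to 66.8 CPM in oe-AQP1 against 72.4 to 76.5 CPM for oe-NC. The members did not move together: Cd68, the most abundant, had 33.7, 35.3 and 32.4 CPM in oe-AQP1 and 29.7, 31.5 and 30.5 in oe-NC (log2FC 0.15, FDR 0.0764), without overlap of the groups. Mrc1, the mannose receptor, had 5, 2 and 2 counts against 0 in each oe-NC sample and was not tested, and Spi1 had a log2FC of 0.04 (FDR 0.899). Csf1r, the receptor of macrophage colony-stimulating factor, was lower with Nos2 (56, 74 and 76 counts against 173, 183 and 202, log2FC -1.51, FDR 1.31e-05 by limma-voom), as was Lyz2 (log2FC -0.52, FDR 2.73e-04). The part of cells expressing these markers in the Acod1 and Nos2 differences was not tested. Among 9 endothelial and fibroblast markers, 6 had at most 3 counts in every sample, and the summed level was 57.6 to 59.4 CPM in oe-AQP1 against 52.6 to 66.5 CPM for oe-NC. Of the 3 tested, Pdgfrb was higher (log2FC 0.34, FDR 0.00284) and Col1a1 lower (-0.73, FDR 0.00238). The 12 renal epithelial markers summed to 854 to 887 CPM in oe-AQP1 against 1044 to 1157 CPM for oe-NC. Of these markers 11 were tested and 6 were lower, where 16.6% of all genes tested were lower. The part of these markers in the lower Nos2 and Sod2 was not tested.

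Around Acod1, the enzymes of the tricarboxylic acid cycle were mostly lower, while neither listed gene of itaconate breakdown (Clybl and Sugct) passed as lower. Of 25 listed genes of the cycle, its carriers and itaconate breakdown, 24 were tested, 17 were lower and 1 was higher, with a median log2FC of -0.21. Over all genes tested, 16.6% were lower and 16.0% higher. The count of lower genes in the list was 12 without oe-AQP1 sample 2 and 13 without oe-AQP1 sample 3. Idh2, an isocitrate dehydrogenase, was the lowest at -0.40 (SE 0.05, FDR 1.56e-04). Fh1 and Sdha, which act on fumarate and succinate, had -0.40 and -0.36. Sugct, a transferase that activates glutarate and itaconate with coenzyme A, was the higher gene, with 16, 20 and 11 counts in oe-AQP1 and 8, 3 and 2 in oe-NC (log2FC 1.85, FDR 0.0145). Sugct, like Acod1, passed the filter on low counts only through the oe-AQP1 samples. Its call rested on few reads and was lost without oe-AQP1 sample 2, oe-NC sample 2 or oe-NC sample 3. Each of these left 0 higher genes in the list. Clybl, a lyase of itaconate breakdown, did not pass (log2FC -0.15, FDR 0.283).

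Sod2 (ENSMUSG00000006818, chr17:13224095-13259591, plus strand), the mitochondrial superoxide dismutase, had 81.2, 79.6 and 81.4 CPM in oe-AQP1 and 102.7, 105.3 and 108.1 in oe-NC. The groups did not overlap. It was 1.31-fold lower (log2FC -0.38, SE 0.04, 95% interval -0.48 to -0.29, FDR 6.07e-05 by limma-voom). The cytosolic Sod1 was lower too (log2FC -0.26, FDR 0.00805), and Sod2 held 21.6% ± 0.365 of the dismutase level per length of exon in oe-AQP1 against 23.1% ± 1.10 in oe-NC (SD, n = 3). Sod2 has 13039 bases of exon and 796 of coding sequence, so the size of this share depends on the length used. Dismutase shares by coding length were not computed.

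Of 32 other genes that make or remove superoxide and peroxide, 25 were tested, 12 were lower and 3 higher, with a median log2FC of -0.17. Among all genes tested, 16.6% were lower and 16.0% higher. The 3 of this list that rose were on the producing side: Nox4, a hydrogen peroxide-forming oxidase (22, 28 and 21 counts against 4, 3 and 11, log2FC 1.99, FDR 0.00323), Xdh, xanthine dehydrogenase (0.61, FDR 4.13e-06), and Ncf4, a subunit of the phagocyte oxidase (0.53, FDR 0.00122). Cybb, the catalytic subunit of that oxidase, had no count. Nox4 passed the filter on low counts through the oe-AQP1 samples, as Acod1 did, so it could be tested only because it was higher there. The other producing genes tested did not pass as higher, among them Cyba (-0.19, FDR 0.147), Noxo1 (-0.29, FDR 0.68) and Ncf1 (-0.07, FDR 0.848). Gpx3, a secreted glutathione peroxidase, fell by 0.64 on the log2 scale (SE 0.03, FDR 3.36e-07), and the mitochondrial Prdx3 by 0.25 (FDR 0.00328). The count of lower genes was 6 without oe-AQP1 sample 2 and 7 without oe-AQP1 sample 3.

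Ptgs2 (ENSMUSG00000032487, chr1:149975194-149983978, plus strand), cyclooxygenase-2, had 0 counts in all 6 samples, which allows at most 0.163 CPM in the shallowest. Ptges (ENSMUSG00000050737, chr2:30779483-30820196, minus strand), the inducible prostaglandin E synthase, had 4.86, 4.96 and 4.62 CPM in oe-AQP1 and 4.08, 5.09 and 4.50 in oe-NC. The oe-AQP1 samples lay within the range of the oe-NC samples. Its log2FC was 0.09 (SE 0.13, 95% interval -0.19 to 0.37, FDR 0.636 by limma-voom). The gene had 80 to 109 counts a sample, and differences within that interval were not detectable at this depth.

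With Ptgs2 at 0, the cyclooxygenase transcript of these cells was that of the constitutive Ptgs1, which was lower in oe-AQP1 (148 ± 2.92 CPM against 194 ± 5.86, SD, n = 3, log2FC -0.39, FDR 3.76e-05). Among the prostaglandin E synthases, Ptges made up 0.728% ± 0.0238 of the level per length of exon in oe-AQP1 and 0.705% ± 0.066 in oe-NC, and Ptges3, also a cochaperone, 94.4% and 94.2%. Ptges has 4405 bases of exon and 470 of coding sequence, and shares by coding length were not computed. Of 28 prostanoid and leukotriene genes, 17 were tested, and 6 were lower while 0 were higher by limma-voom, edgeR, DESeq2 and an unadjusted p under 0.05 (median log2FC -0.14). By limma-voom, 16.6% of all genes tested were lower and 16.0% higher. The lower genes included the E2 receptor Ptger3 (-0.61, FDR 2.85e-04), the exporter Abcc4 (-0.43, FDR 4.25e-05) and the D2 synthase Hpgds (-0.90, FDR 0.0151). Hpgds rested on 21 to 64 counts and did not pass without oe-AQP1 sample 1. The highest value was Ptgr1 at 0.11 (FDR 0.332).

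Ido1 (ENSMUSG00000031551, chr8:25074150-25087025, minus strand), which opens the route from tryptophan to kynurenine, had 2 counts in oe-AQP1 sample 1 and 0 in the other 5 samples. Kynu (ENSMUSG00000026866, chr2:43445309-43572734, plus strand), kynureninase, had 2 counts in oe-AQP1 sample 3 and 0 elsewhere. Neither gene rose above the 3 counts that a 0 allows, neither was tested, and no difference was detectable at this depth. Of 21 other tryptophan and kynurenine genes, 9 were tested, 3 were lower and 1 higher, with a median log2FC of -0.17. Beside this, 16.6% of all genes tested were lower and 16.0% higher. Afmid, which releases kynurenine from its formyl precursor, had the lowest value (-0.60, SE 0.06, FDR 2.15e-05), and Wars1, which charges tRNA with tryptophan, had -0.26 (FDR 3.92e-04). The amino acid transporter chain Slc3a2 was the higher gene (0.13, FDR 0.0161) and did not pass when any of the 3 oe-AQP1 samples or oe-NC sample 2 was left out. Without oe-NC sample 1 the count of lower genes was 5.

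Among known inducers of these enzymes, those that passed an FDR of 0.05 were higher, and others did not pass. Of 16 listed factors all were tested, 8 were higher and 0 lower by limma-voom, with a median log2FC of 0.20. The shares over all genes tested were 16.0% higher and 16.6% lower. edgeR also called 8 and 0, DESeq2 called 7 and 0, and at an unadjusted p under 0.05 there were 9 and 2. Stat2 (log2FC 1.97, SE 0.04, FDR 8.79e-11) and Irf1 (1.43, SE 0.06, FDR 2.54e-08), factors of interferon signalling, were among those past the fold criterion. Irf9 (0.68), Relb (0.63), Nfkb2 (0.58) and Nfkbiz (0.44) passed by FDR. Rel passed too (0.19, FDR 0.0334), but not in 6 of 15 alternative settings. The 8 that did not pass included Nfkb1 (-0.05, FDR 0.491), Rela (0.20, FDR 0.0696), Stat3 (0.00, FDR 0.953) and Cebpb (-0.25, FDR 0.332). Stat2 had 8832, 10019 and 9049 counts in oe-AQP1 and 2326, 2059 and 2396 in oe-NC. Cebpd was the lowest at -0.31 (FDR 0.0757). Without oe-NC sample 1, 2 factors were lower (Hif1a and Nfe2l2), and 1 was without oe-NC sample 2 (Cebpd) or oe-NC sample 3 (Nfe2l2). Nos2 and Sod2 thus had lower values, and Acod1 and Gch1 higher values, in the samples with more Stat2 and Irf1 RNA, and Ptgs2, Ido1 and Kynu were at or under 3 counts in all of them.

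**Figure D2:**
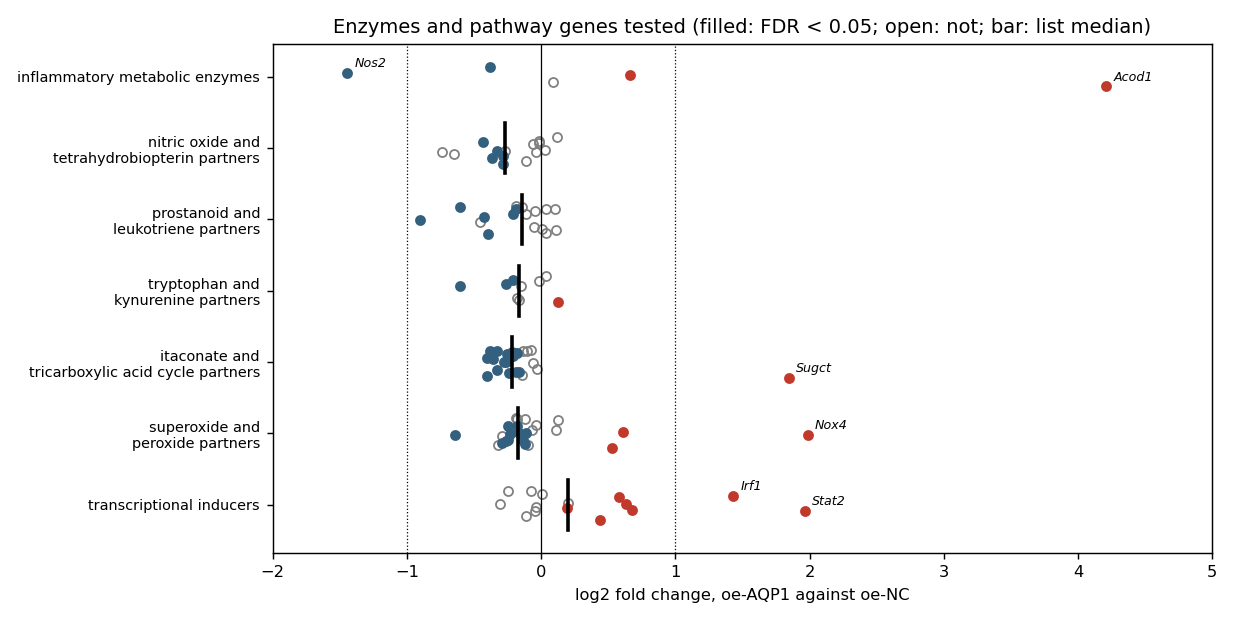
Log2FC (horizontal axis, oe-AQP1 against oe-NC) of the tested enzymes and of the tested genes of 6 pathway lists, 1 point a gene, spread vertically for display, without the genes that are not reported here. Filled points passed an FDR of 0.05, black bars are the medians of the whole lists, from -0.27 to 0.20, and dotted lines stand at -1 and 1. Acod1 at 4.21 and Nos2 at -1.44 lie outside the range of the listed pathway genes.

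Compared per kilobase of exon, the enzymes differed widely in level. In oe-AQP1 the order was Gch1 (53.2 ± 0.852 CPM per kb), Sod2 (6.19 ± 0.0772), Nos2 (1.11 ± 0.112), Ptges (1.09 ± 0.0392) and Acod1 (0.369 ± 0.0673, all SD, n = 3). Nos2 and Ptges overlapped there and cannot be ordered. In oe-NC the order was Gch1 (33.6 ± 1.28), Sod2 (8.08 ± 0.210), Nos2 (3.00 ± 0.0305), Ptges (1.03 ± 0.115) and Acod1 (0.0134 ± 0.0117), and only the last lay under the floor. With coding length in place of exon length, Ptges came before Nos2 in both groups, so the order of that pair depends on the length used. The size of the gaps depends on it too. Per kb of coding sequence, Gch1 had 232.9 and Sod2 132.4 CPM in oe-NC, and Ptges had 10.24 and Nos2 1.39 in oe-AQP1.

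**Figure D3:**
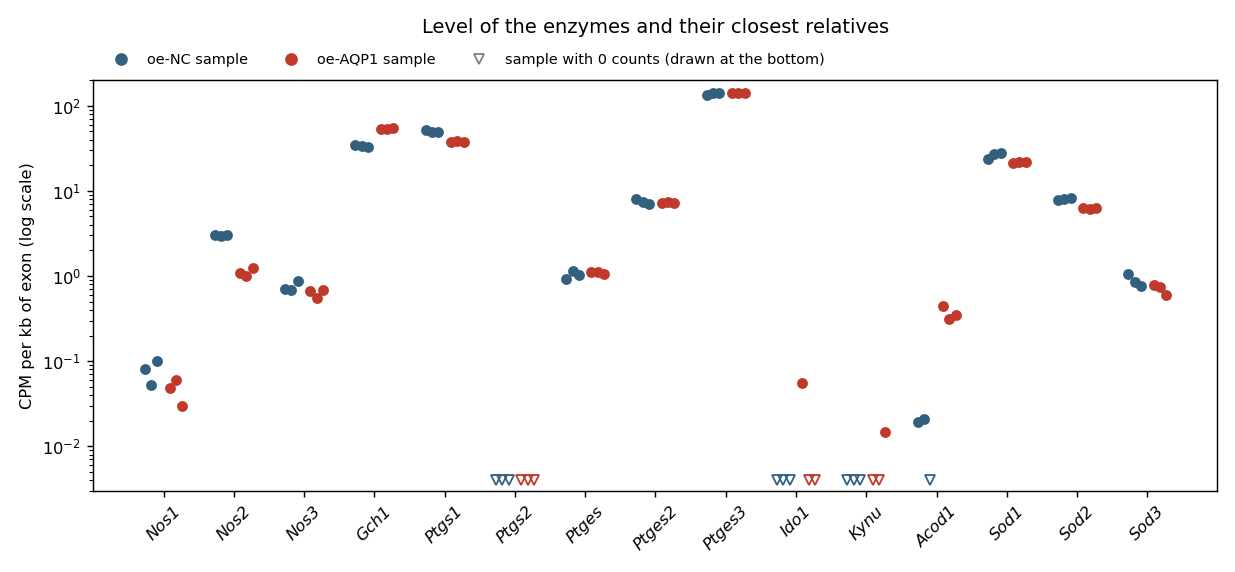
Level of the 8 enzymes and their closest relatives in CPM per kb of exon (log axis), 1 point a sample. Gch1 is the highest of the 8, Nos2 exceeds Nos1 and Nos3, Ptgs1 is present where Ptgs2 has 0 counts, and samples with 0 counts are drawn at the bottom as open triangles.

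The genes whose log2 CPM followed Nos2 most closely over the 6 samples were Tbc1d4 (Pearson r 0.9998), Hmgcs1 (0.9995) and Igfbp6 (0.9988). They matched its relative spacing over the samples and not its size, with log2FC of -0.27, -0.33 and -0.31 where Nos2 had -1.44. None kept the order of Nos2 among the oe-NC samples, whose values lay close together. Atmin (0.9986), Lsg1 (0.9977) and a gene without a symbol, ENSMUSG00000136721 (0.9977), came closest to Acod1, with log2FC of 0.35, 0.33 and 0.73. These are the highest of 15266 genes over 6 samples in 2 groups and carry no p-value.

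**Figure D4:**
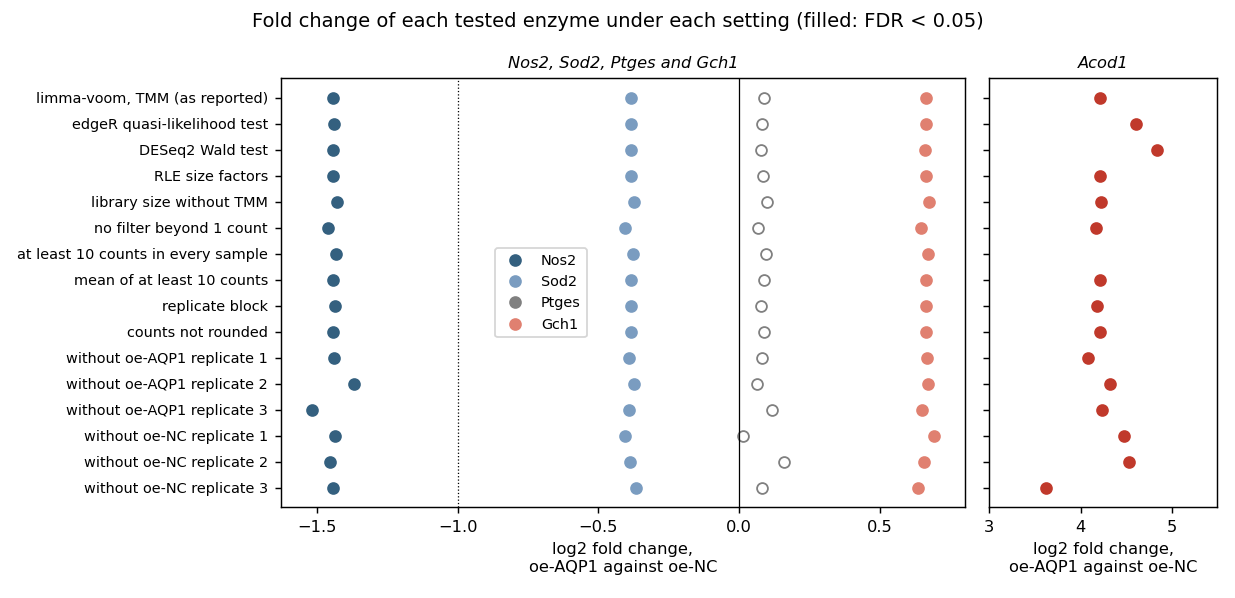
Log2FC of the 5 tested enzymes (horizontal axis) under each test, scaling, filter and left-out sample (rows), with Acod1 in a panel of its own. Filled points passed an FDR of 0.05. Nos2 stayed between -1.52 and -1.37, Sod2 between -0.40 and -0.37, Gch1 between 0.64 and 0.69 and Acod1 between 3.62 and 4.83, and Ptges did not pass in any setting.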

How the data were processed

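RNA from 3 oe-AQP1 and 3 oe-NC samples of RENCA cells was sequenced. The authors deposited 1 table of expected counts per gene (89.4% to 90.5% of values whole), which were rounded here. Its 2 group-mean columns were left out. The submitters' processing notes name fastp, HISAT2, featureCounts and Subread with build GRCm38 (mm10), and the study's methods name GRCm39. Versions, counting options and strand are not given in the sources used here. Without strand, reads of Nos2, Ptges, Acod1 and Sod2 and of annotated antisense transcripts that overlap their exons cannot be told apart. The table holds no coordinates: gene positions and exon lengths are from GENCODE M39 (GRCm39, 78168 of 78298 genes found by ID), and promoters are on GRCm38.p6. The 21883 genes without a symbol were kept by ID.

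Genes were kept by edgeR's filterByExpr (15522), scaled by TMM (factors 0.993 to 1.01) and fitted with limma-voom (R 4.3.3, limma 3.58.1, edgeR 4.0.16) on the 6 samples without covariates. P-values were adjusted by Benjamini-Hochberg over all tested genes, with thresholds of 0.05 for FDR and 1 for the size of log2FC. CPM are counts divided by the TMM-scaled library size and multiplied by 1000000 (the floor of 3 counts uses the summed counts). DESeq2 1.42.0, edgeR's quasi-likelihood test, other scalings and filters, a replicate block, unrounded counts and left-out samples were the alternatives. The limma-voom fit, edgeR's test and DESeq2 were tested on simulated counts, and the other settings were not. Named were the 8 enzymes, Aqp1, in each pathway list the genes past both thresholds and the highest and lowest log2FC at a mean of at least 10 counts, and the 3 genes most correlated with Nos2 and with Acod1. Other pathway and marker genes were named after their values were seen, for their role. The enzymes and lists were chosen with earlier results of these data known. The exact interval of the Acod1 ratio and the floors cover counting error only. The limma-voom intervals rest on the spread between these samples. Results for some genes of the pathway lists, which stay in the counts and medians, are not reported here.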

Additional observations from a re-analysis of the deposited data

How the results depend on the processing

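All 74 alternative log2FC of the 5 tested enzymes kept their direction and their side of the threshold. Acod1 was not tested when at least 10 counts were required in every sample, which left 1 enzyme higher by FDR, 0 by FDR and fold, and 0 higher itaconate genes. Without a filter beyond 1 count, 1 prostanoid gene and 2 tryptophan genes were higher and 1 inducer was lower. Leaving out each sample in turn gave 3 to 5 lower nitric oxide genes and 0 to 1 higher and 2 to 5 lower tryptophan genes. It gave 0 to 1 higher and 12 to 19 lower itaconate and cycle genes, 6 to 12 lower superoxide genes and 0 to 2 lower inducers. With coding length, Nos2 ranked 4 and Ptges 3 in both groups. Genes past FDR and fold numbered 681 higher and 131 lower as reported, 416 and 66 with at least 10 counts in every sample, and 932 and 204 without a filter.

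Same-numbered samples did not deviate together (correlations 0.02, -0.008 and -0.07 over 15267 genes), and pairs with different numbers had -0.065 to 0.077. Shared handling of same-numbered samples was not tested. With the replicate number as a block, 2346 genes were higher and 2479 lower against 2481 and 2569 without it, Nos2 had a log2FC of -1.43, Acod1 4.18, and 1 inducer was lower. At 96 to 285 counts for Nos2 and 0 to 23 for Acod1 depth limits the precision of their folds, and for Ptgs2, Ido1 and Kynu it allows no comparison.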

Other observations

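Several pathway genes had too few counts to be tested and are given as values, chosen after they were seen. Ido2, the relative of Ido1, had 3, 6 and 4 counts in oe-AQP1 and 0, 0 and 1 in oe-NC. Tdo2, the hepatic tryptophan dioxygenase, had 6, 9 and 9 against 8, 3 and 2. Pla2g4a, a phospholipase that releases arachidonic acid, had 11, 4 and 3 against 0, 1 and 0.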
